A study of Mus musculus with 6 samples.

Results

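The genes described here are Trp53, which encodes the transcription factor p53, and 9 genes that p53 is known to activate. They are Mdm2, Ccng1, Cdkn1a, Zmat3, Bbc3, Phlda3, Trp53inp1, Bax and Eda2r. The 10 genes were taken by symbol from a count table of 55401 genes, and each matched 1 row. RNA was sequenced from V6.5, a mouse embryonic stem cell line derived from hybrid embryos. The wild type (WT) group was compared with Cdh1-/- cells of the same line, called the knockout below, in which the adhesion gene for E-cadherin is disrupted. There were 3 libraries per genotype, replicates A, B and C. How the knockout was made, whether it is 1 clone, and the culture conditions are not given in the sources used here. Nothing in the labels says that libraries came from separate cultures, so the p-values measure only the spread between these libraries.

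p53 is held at a low level by Mdm2, a ubiquitin ligase that marks it for degradation, and by the related protein Mdm4. DNA damage and other stresses free p53 from this control, mostly through changes of the protein and not of its transcript. Active p53 binds response elements near its targets and raises genes of cell cycle arrest, apoptosis, repair and metabolism, Mdm2 included, which closes a feedback loop. Mouse embryonic stem cells are known for abundant Trp53 transcript and for a p21 response that is weaker than in differentiated cells. Counts of RNA carry no measurement of p53 protein.

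Sequence before the start of several of these genes is shown because p53 acts through DNA elements. RefSeq promoter windows in build GRCm38.p6, from 250 bases before to 50 bases after a start, were held for 8 of the 10 genes, all but Trp53inp1 and Zmat3. They were searched for the p53 half-site consensus of 10 bases, which reads the same on both strands. At least 1 match was found in 5 of the 11 windows, 1 window each of Cdkn1a, Mdm2, Ccng1, Bax and Trp53, against 8.36% of all 32851 windows. The windows of Bbc3, Phlda3 and Eda2r held none, which says only that these letters are absent there. Known p53 elements of several targets lie in introns or farther upstream, outside such windows. The stretches of 70 bases below run 5′ to 3′ on the strand of the gene, with matches to the half-site in capitals.
Cdkn1a (chr17:29090898-29090967, plus strand): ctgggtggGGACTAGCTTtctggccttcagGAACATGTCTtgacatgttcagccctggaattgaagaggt
Mdm2 (chr10:117710905-117710974, minus strand): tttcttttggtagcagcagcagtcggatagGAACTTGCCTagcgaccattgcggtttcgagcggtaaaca
Ccng1 (chr11:40755432-40755501, minus strand): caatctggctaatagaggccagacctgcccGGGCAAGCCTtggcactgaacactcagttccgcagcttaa
Bax (chr7:45467060-45467129, minus strand): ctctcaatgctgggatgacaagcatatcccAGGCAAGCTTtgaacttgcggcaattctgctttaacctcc
Trp53 (chr11:69580254-69580323, plus strand): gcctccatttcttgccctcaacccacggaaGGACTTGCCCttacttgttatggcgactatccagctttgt
The Cdkn1a window shown held 2 matches, which began 73 and 51 bases before its start. Another Cdkn1a window, at a start farther downstream, held no match. A pair of matches with at most 13 bases between them occurred in 0.0731% of all windows. Among the windows of these genes, it occurred in the Cdkn1a window shown alone. A match is a description of the reference sequence and not evidence of binding.

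The libraries held between 18020719 and 23381942 counts. The targeted gene Cdh1 averaged 559 ± 19.1 CPM in WT, in counts relative to the library total after TMM scaling, and 173 ± 9.05 CPM in Cdh1-/- cells (SD, n = 3 each). On the second principal component, with 20.9% of the variance, knockout replicate A stood at 43.48, apart from the other libraries at -25.79 to 8.988. Pluripotency markers were abundant in every library, with a summed level of 7 genes from 2711 CPM to 3117 CPM in WT and from 2549 CPM to 3384 CPM in the knockout. Of the 7, Klf2 alone was called, or 14.3% against 13.3% of all tested genes in either direction. Klf2 was lower in the knockout, at 101 ± 8.71 CPM against 153 ± 20.1 CPM in WT (log2 fold change -0.60, edgeR adjusted p 0.00144). Of 12 fibroblast markers, which would show feeder cells, 2 were at 0 in every library, and the sum ranged from 37.02 CPM to 51.54 CPM in WT and from 39.36 CPM to 49.47 CPM in the knockout. Among these Col1a1, a collagen gene, fell (log2 fold change -1.48, edgeR adjusted p 0.000912) and Pdgfra, a growth factor receptor gene, rose (log2 fold change 1.49, edgeR adjusted p 0.000616). The sum hid a difference of replicate A. Col3a1 had 114 counts in WT A and 42 in knockout A, against 2 to 20 elsewhere. Col1a2 had 102 and 60, against 10 to 36. Dcn and Postn, at 18 counts or fewer, were also highest in replicate A of each genotype. Col6a1 was highest in WT A (2.25 CPM) but not in knockout A (1.44 CPM). Pdgfra was lowest in replicate A of WT, and in the knockout replicate A was level with B (15.86 and 15.9 CPM). Pdgfrb did not set replicate A apart. Whether feeder content differed between libraries was not tested. All 8 endoderm markers were called higher in the knockout by edgeR, against 7.60% of all genes, and 7 by DESeq2, against 8.36%. Their sum lay between 49.11 CPM and 89.47 CPM in WT and between 145.5 CPM and 319.3 CPM in the knockout. Of these markers, Foxa2 was called in 9 of the 14 other settings with a value and Dab2 in 10 of 16. The sum of 6 neural markers was 135.9 CPM to 176.6 CPM in WT and 97.22 CPM to 134.3 CPM in the knockout. Pax6, a neural transcription factor gene, fell from 17.3 ± 3.82 CPM to 1.98 ± 0.680 CPM and Nes, the nestin gene, from 47.03 ± 13.4 CPM to 25.6 ± 4.49 CPM (SD, n = 3, log2 fold changes -3.14 and -0.88, edgeR adjusted p 3.5e-06 and 0.00505). Of the 4 neural markers tested, these 2 were called, against 5.71% of all genes called lower. Sox1 and Tubb3 were the other tested ones, named after their values were seen. Neither was called (log2 fold changes 0.42 and -0.14, edgeR adjusted p 0.265 and 0.618). In bulk RNA, a change in the number of cells of a type and one in RNA per cell cannot be told apart.

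Of the 9 p53 targets, 6 rose in the knockout and none fell, while the Trp53 transcript itself was not called. The 6 were Ccng1, Phlda3, Mdm2, Cdkn1a, Zmat3 and Bbc3, with folds from 1.35 to 1.66. Calls were made at an adjusted p under 0.05 in edgeR's quasi-likelihood test across 17325 genes, where 7.60% of all genes were called higher. At an unadjusted p under 0.05, 7 members were higher and 0 lower, against 14.1% and 12.6% of all genes. DESeq2 called the same numbers, against 8.36% and 6.49% of all genes. All 10 genes passed the filter on low counts, with at least 542 counts in any library. The median log2 fold change of the 9 targets was 0.44, against -0.01 over all tested genes. In the same 6 targets every knockout library lay above every WT library, a separation, in either direction, that held for 30.7% of all tested genes.

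**Figure D1:**
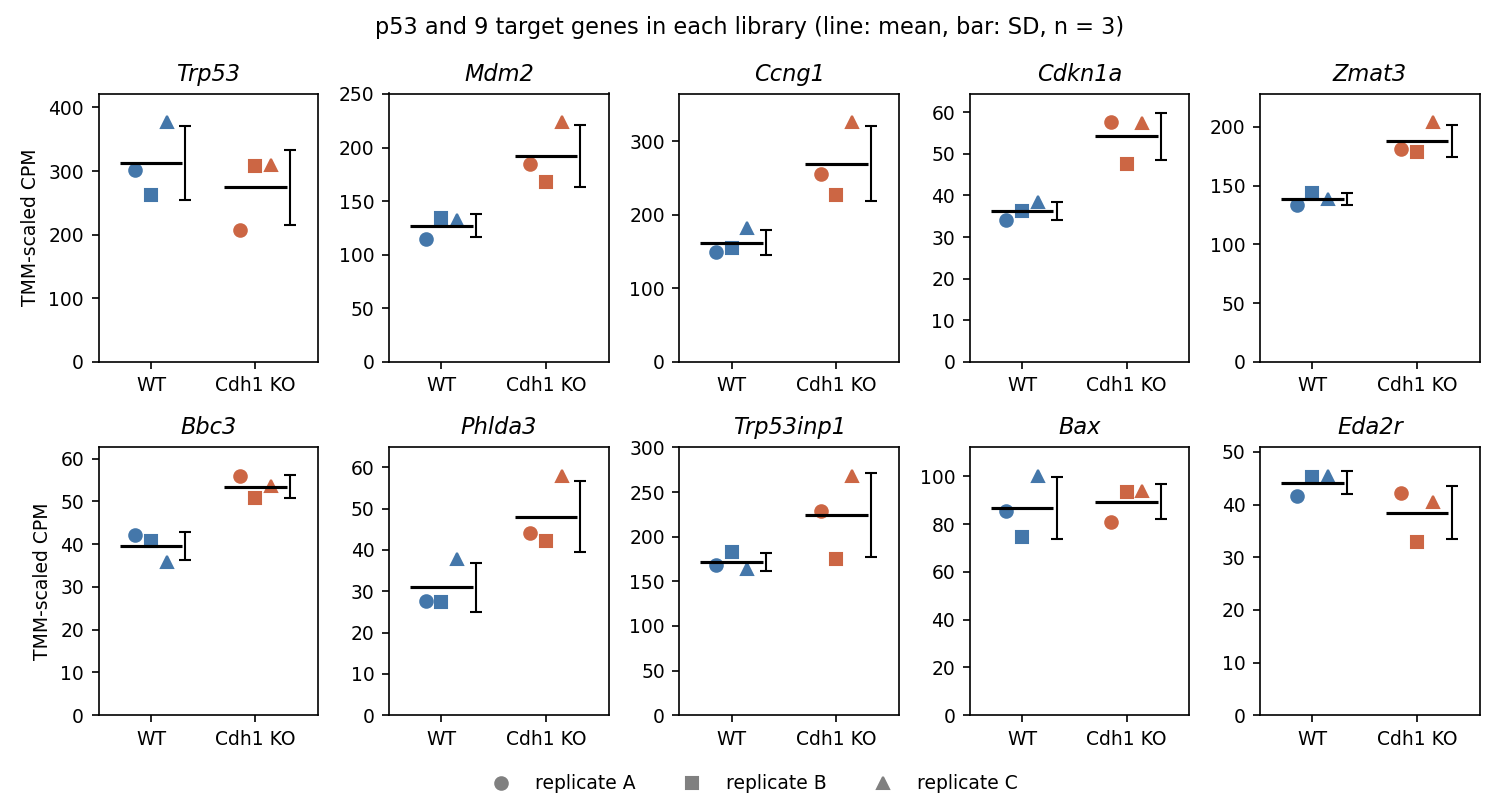
Levels of Trp53 and 9 targets in TMM-scaled CPM (vertical axes, each from 0) for the 3 WT (blue) and 3 Cdh1 knockout (orange) libraries; symbols mark replicates A, B and C, lines the mean and bars the SD. The groups are apart for Mdm2, Ccng1, Cdkn1a, Zmat3, Bbc3 and Phlda3, and overlap for Trp53, Trp53inp1, Bax and Eda2r.

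Trp53 (ENSMUSG00000059552.13, chromosome 11, 69580359 to 69591873, plus strand) stood at 301, 262 and 377 CPM in replicates A, B and C of WT. In the same order, the knockout replicates held 207, 308.5 and 309 CPM. The groups overlapped, and knockout replicate A was the lowest of the 6 libraries. The log2 fold change was -0.19 (95% interval -0.51 to 0.13, adjusted p 0.464 in edgeR). Over 16 other settings it lay between -0.30 and -0.02, and none called it. An annotated pseudogene, Trp53-ps on chromosome 17, had 4 to 14 counts per library. Per kilobase of exon, Trp53 had the highest level of the 10 genes in WT, at 168 ± 31.1 (CPM per kilobase, SD, n = 3).

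The 2 feedback inhibitors of p53 rose together. Mdm2 (ENSMUSG00000020184.15, chromosome 10, 117688875 to 117710758, minus strand) stood at 115, 134 and 132.5 CPM in WT. It reached 185, 168 and 224 CPM in knockout replicates A, B and C. Every knockout library was above every WT library, with a log2 fold change of 0.60 (SE 0.11, edgeR adjusted p 0.00188). Ccng1 (ENSMUSG00000020326.7, chromosome 11, 40748552 to 40755311, minus strand) encodes cyclin G1, which brings a phosphatase to Mdm2. Its WT level was 150, 155 and 182 CPM, and its knockout level 256, 226 and 326 CPM. Ccng1 had the highest fold of the 10 genes, 1.66 (log2 fold change 0.73, SE 0.12, edgeR adjusted p 0.000990). Both calls held in all 16 other settings, with adjusted p-values up to 0.0207 for Mdm2 and 0.0138 for Ccng1.

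Cdkn1a (ENSMUSG00000023067.14, chromosome 17, 29090979 to 29100727, plus strand) encodes p21, the inhibitor of cyclin-dependent kinases through which p53 stops the cell cycle. WT libraries held 34.2, 36.2 and 38.4 CPM, and knockout libraries 57.6, 47.6 and 57.4 CPM. The groups were apart, and WT varied little. The log2 fold change was 0.58 (SE 0.11, adjusted p 0.00223 in edgeR), and it was called in all 16 other settings. A gene on the opposite strand covers 10% of the Cdkn1a exon bases, and whether counting used strand is not given in the sources used here. Per kilobase, Cdkn1a was low among the 10 genes, at 13.3 ± 0.773 in WT and 19.94 ± 2.102 in the knockout (CPM per kilobase, SD, n = 3).

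Zmat3 (ENSMUSG00000027663.12, chromosome 3, 32334792 to 32365678, minus strand) encodes an RNA-binding protein that regulates splicing and the stability of transcripts downstream of p53. Its WT libraries stood at 133, 144 and 139 CPM, and its knockout libraries at 181, 179 and 204 CPM. The difference exceeded the narrow spread of both groups, with a log2 fold change of 0.44 (SE 0.09, edgeR adjusted p 0.00302). Zmat3 was called in all 16 other settings, with adjusted p-values up to 0.0280.

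**Figure D2:**
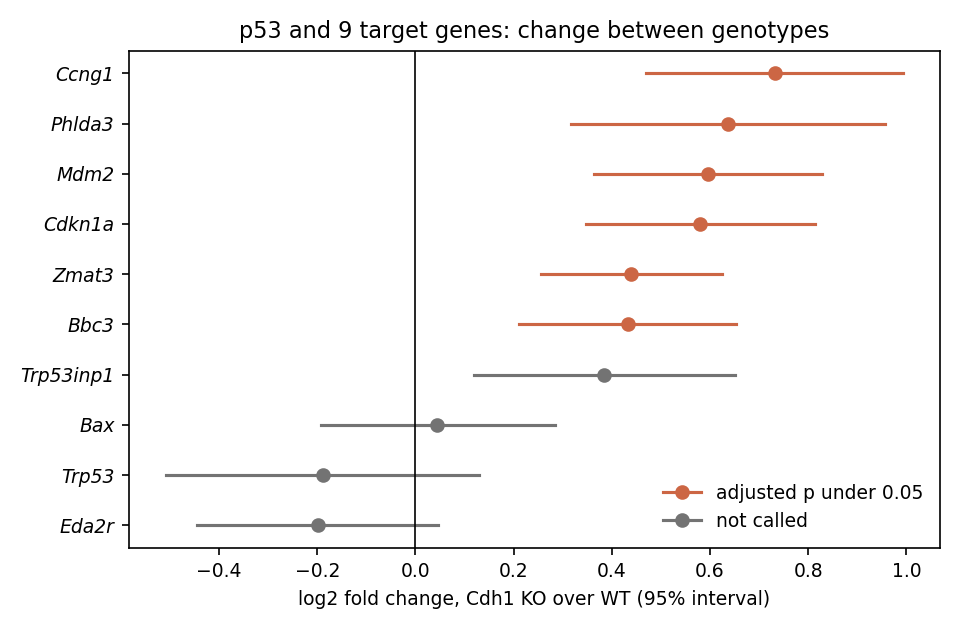
Log2 fold change of the knockout over WT (horizontal axis) with its 95% interval for Trp53 and 9 targets, from the edgeR fit across all genes. The 6 called genes, in orange, lie between 0.43 and 0.73, and Trp53inp1 has an interval above 0 but did not pass the adjusted threshold.

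The apoptosis genes did not move as one. Bbc3 (ENSMUSG00000002083.13, chromosome 7, 16309616 to 16318205, plus strand) encodes Puma, which binds the survival proteins of the BCL2 family. Replicates A, B and C held 42.2, 40.8 and 35.8 CPM in WT against 56.05, 50.7 and 53.5 CPM in the knockout. The groups were apart, with a log2 fold change of 0.43 (SE 0.10, edgeR adjusted p 0.0114). Without WT replicate C, its lowest library, the adjusted p was 0.0563.

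Phlda3 (ENSMUSG00000041801.5, chromosome 1, 135766119 to 135769136, plus strand) encodes a pleckstrin homology protein that competes with Akt for membrane lipids. The WT libraries held 27.6, 27.4 and 37.8 CPM and the knockout libraries 44.05, 42.2 and 58.03 CPM. WT replicate C lay close to the lowest knockout library. The log2 fold change was 0.64 (SE 0.15, adjusted p 0.0104 in edgeR), and the call was lost without WT replicate A (adjusted p 0.0700), WT replicate B (0.0761) or knockout replicate C (0.0654). Genes of chromosome 1 had medians from -0.33 to -0.29 in the knockout libraries relative to the other autosomes on the log2 scale. With these medians removed, Phlda3 showed a log2 fold change of 0.95 (edgeR adjusted p 0.000664).

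Trp53inp1 (ENSMUSG00000028211.11, chromosome 4, 11156431 to 11174379, plus strand) encodes a stress-induced nuclear protein that takes part in cell death and autophagy. Its replicates stood at 168, 182.5 and 164 CPM in WT and at 229, 175 and 268.5 CPM in the knockout. Knockout replicate B lay within the WT range and the other knockout libraries above it. The log2 fold change was 0.38 (SE 0.12), with an adjusted p of 0.0556 that missed the threshold in edgeR. It was called without knockout replicate B (log2 fold change 0.55, edgeR adjusted p 0.00607).

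Bax (ENSMUSG00000003873.11, chromosome 7, 45461697 to 45466898, minus strand) encodes a pore-forming protein of the outer mitochondrial membrane. Levels of 85.3, 74.4 and 100.3 CPM in WT compared with 81.03, 93.5 and 93.7 CPM in the knockout. All knockout libraries lay within the WT range (log2 fold change 0.04, 95% interval -0.19 to 0.28, adjusted p 0.849 in edgeR). Another annotated gene on the same strand shares 22.1% of the Bax exon bases, and reads there may not have been assigned.

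Eda2r (ENSMUSG00000034457.10, chromosome X, 97333840 to 97377216, minus strand) encodes a receptor of the tumour necrosis factor family that binds ectodysplasin. The WT replicates held 41.6, 45.3 and 45.5 CPM and the knockout replicates 42.2, 32.8 and 40.5 CPM. The groups overlapped at knockout replicate A, and replicate B was the lowest. The log2 fold change was -0.20 (95% interval -0.44 to 0.05, adjusted p 0.296 in edgeR). Eda2r and Trp53 were the only members with a fitted value below 0. Per kilobase, Eda2r had the lowest level of the 10 genes, at 9.20 ± 0.458 in WT.

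The order of levels per kilobase in WT ran from Trp53 through Bax at 99.96 ± 15.01, Ccng1 at 46.2 ± 4.82 and Mdm2 at 40.4 ± 3.42 to Trp53inp1 at 31.8 ± 1.78 (CPM per kilobase, SD, n = 3). Bbc3 at 21.8 ± 1.86, Phlda3 at 21.5 ± 4.16 and Zmat3 at 17.8 ± 0.673 followed, ahead of Cdkn1a and Eda2r. The mean ± SD ranges of neighbours overlapped for Ccng1 and Mdm2, Bbc3 and Phlda3, and Phlda3 and Zmat3.

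**Figure D3:**
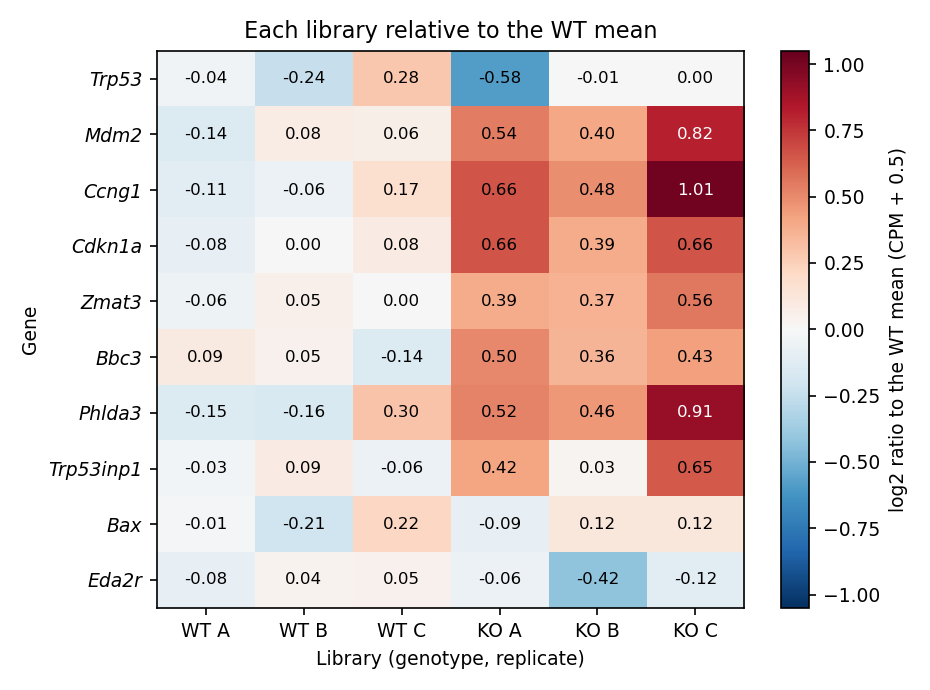
Log2 ratio of each library (columns) to the WT mean, on CPM with 0.5 added, for Trp53 and 9 targets (rows); red is above and blue below the WT mean. Knockout replicate C has the highest values for Ccng1 (1.01), Phlda3 (0.91) and Mdm2 (0.82), and knockout replicate A the lowest for Trp53 (-0.58).

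The libraries of the knockout differed in how far the targets stood above WT. Over the 9 targets the median log2 ratio to the WT mean was 0.50 in replicate A, 0.37 in B and 0.65 in C, against -0.08, 0.04 and 0.06 in the WT replicates. Replicate C was the highest of the 6 libraries for 5 targets, and replicate A for 2. Among the knockout libraries, Bax was the only target in the same order as Trp53, with replicates C and B nearly equal and A lowest. Replicate A had the least Trp53 transcript and the highest Bbc3, and its Cdkn1a was nearly equal to that of replicate C. The summed endoderm markers were 145.5 CPM, 214.8 CPM and 319.3 CPM in knockout replicates A, B and C. The part of these and of the other marker changes in the higher targets was not tested.

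A broader list of 43 further p53 targets was described in the same way. Like the members, it was chosen with earlier results of these data known. Of 41 that could be tested, 12 rose, 2 fell and 27 were not called, against 7.60% called higher and 5.71% called lower among all genes. The median log2 fold change was 0.27, and 33 of 41 were above 0, compared with 8479 of 17325 tested genes. By role, 3 of 9 tested apoptosis genes rose, 2 of 8 genes of metabolism and redox control, 1 of 8 cell cycle genes, and 1 of 5 genes of DNA repair and nucleotide supply. Among the remaining 11, 5 rose and 2 fell. Without WT replicate A the number of called targets was 8 in place of 14.

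Perp, which encodes a membrane protein of desmosomes linked to apoptosis, had the highest fold of this list. WT libraries held 21.6, 26.2 and 29.3 CPM, and knockout libraries 56.7, 54.7 and 74.4 CPM (log2 fold change 1.27, SE 0.14, edgeR adjusted p 3.8e-05). The lowest knockout library was well above the highest WT library. Tnfrsf10b, a death receptor, rose from 40.01 ± 4.87 CPM to 76.7 ± 5.51 CPM (SD, n = 3, log2 fold change 0.94, edgeR adjusted p 4.9e-05). It lies on chromosome 14, whose genes had medians of 0.54 to 0.55 in the knockout libraries, and with that median removed its log2 fold change was 0.40 (adjusted p 0.0271). The adenylate kinase gene Ak1 rose from 29.1 ± 2.89 CPM to 51.3 ± 6.01 CPM (SD, n = 3, log2 fold change 0.82, edgeR adjusted p 0.000334).

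Plk2, a polo-like kinase gene, stood at 16.5, 17.7 and 21.7 CPM in WT and at 26.25, 28.3 and 52.8 CPM in the knockout. Its log2 fold change of 0.94 (edgeR adjusted p 0.00938) rested in part on knockout replicate C, without which it was 0.56 (adjusted p 0.0351). Without WT replicate A or B its adjusted p was 0.0623 or 0.0658. Apaf1, which forms the apoptosome, and Sesn1, a sestrin gene that restrains mTORC1, were named after their values were seen. Their log2 fold changes were 0.67 and 0.76 (edgeR adjusted p 0.000313 and 0.000937). Gadd45a and Sesn2, named in the same way, were among the 8 tested targets of this list below 0. Neither was called (log2 fold changes -0.40 and -0.17, edgeR adjusted p 0.0609 and 0.458). Gadd45a was called lower in 7 of the 16 other settings.

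Of the 2 targets that fell, 1 is described here. Thbs1, which encodes thrombospondin 1, fell from 15.4 ± 2.69 CPM to 4.77 ± 2.06 CPM (SD, n = 3, log2 fold change -1.70, edgeR adjusted p 0.000641).

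**Figure D4:**
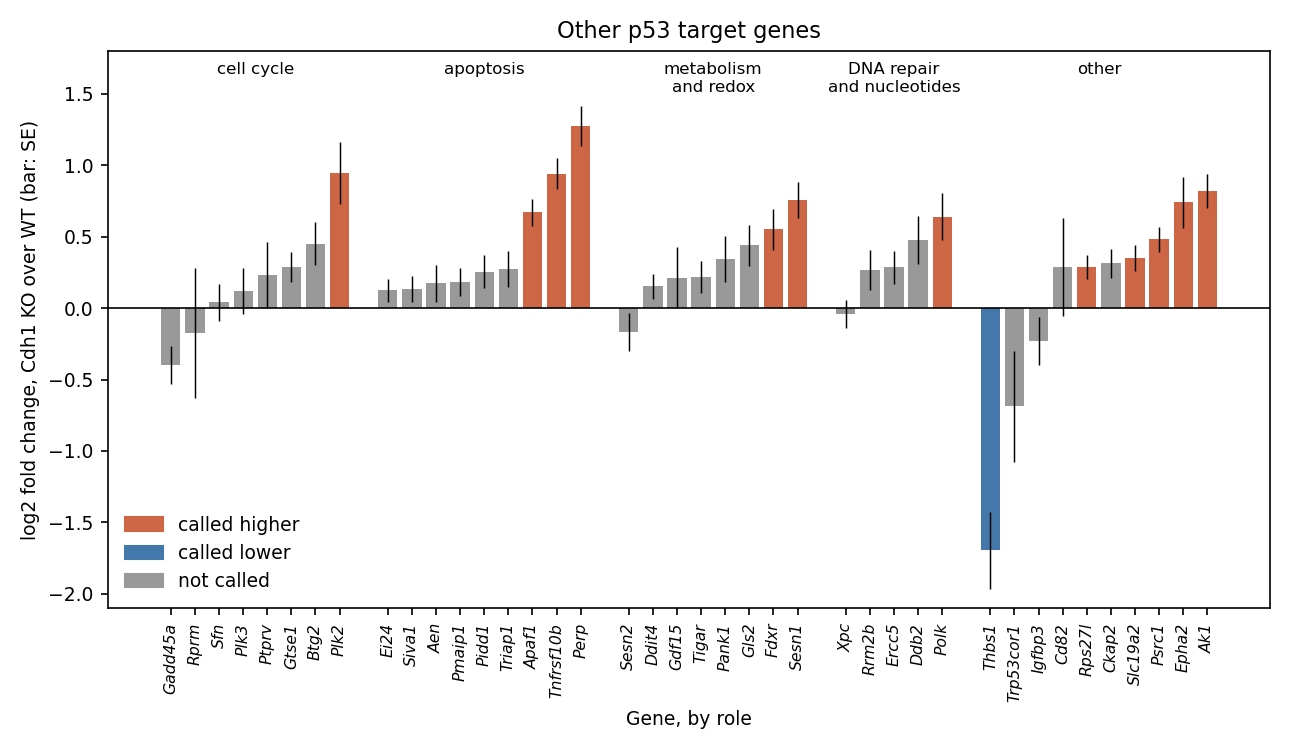
Log2 fold change of the knockout over WT (vertical axis, bars from 0, error bars SE) for the 41 tested p53 targets beyond the 9 above, less 1 that is not shown, grouped by role. Perp (1.27) has the highest and Thbs1 (-1.70) the lowest value shown, and the 12 genes called higher are spread over all 5 roles.

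The 16 regulators were also listed with earlier results of these data known. Of them, 5 fell and none rose, against 5.71% of all genes called lower. At an unadjusted p under 0.05, 6 regulators were lower and 0 higher, against 12.6% and 14.1% of all genes. DESeq2 called 5 lower and 0 higher, against 6.49% and 8.36%. Without knockout replicate A, 5 were called lower and Sirt1, a deacetylase gene named after its values were seen, was called higher (log2 fold change 0.38, edgeR adjusted p 0.0259). Cdkn2a encodes p19Arf, which blocks Mdm2, as well as the kinase inhibitor p16Ink4a, and the counts sum both. It fell from 8.46, 6.92 and 9.70 CPM in WT to 2.65, 2.71 and 3.83 CPM in knockout cells (log2 fold change -1.45, SE 0.24, edgeR adjusted p 0.000858). The groups were far apart, and the call held in all 16 other settings.

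Mdm4 fell from 495 ± 56.2 CPM to 381 ± 40.5 CPM (SD, n = 3, log2 fold change -0.38, edgeR adjusted p 0.0225). It lies on chromosome 1, and with the median of that chromosome removed the log2 fold change was -0.06 (adjusted p 0.777). Its call was also lost without WT replicate B (adjusted p 0.137), knockout replicate B (0.0965) or knockout replicate C (0.121). Cop1, a ubiquitin ligase gene on the same chromosome, showed a log2 fold change of -0.45 (edgeR adjusted p 0.00484), and one of -0.14 (adjusted p 0.387) with the median removed. Atr, a kinase of the replication stress response, fell from 136 ± 9.998 CPM to 104 ± 3.21 CPM (SD, n = 3, log2 fold change -0.39, edgeR adjusted p 0.00769), and omitting WT replicate A gave an adjusted p of 0.0571. Hipk2, a kinase that phosphorylates p53, showed a log2 fold change of -0.48 (edgeR adjusted p 0.0312). The Hipk2 call was lost without WT replicate A (adjusted p 0.0674), WT replicate C (0.161) or knockout replicate C (0.129).

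Of the relatives of p53, Trp63 had at most 4 counts in any library and was not tested. Trp73 averaged 2.88 ± 1.11 CPM (WT) and 2.83 ± 0.583 CPM (knockout) (log2 fold change -0.03, edgeR adjusted p 0.968). Both values lay well within the spread of the libraries. The 3 ASPP genes, whose products bind p53 and steer it toward or away from apoptosis targets, were not called either. At an unadjusted p under 0.05, 0 of the 4 tested relatives and ASPP genes passed, against 14.1% of all genes higher and 12.6% lower. DESeq2 also called 0, against 8.36% and 6.49% of all genes. For so few genes, 0 is near these shares.

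Of 12 further genes of the BCL2 family, to which Bax and Bbc3 belong, 1 was called, against 13.3% of all tested genes in either direction, a share near that of all genes. Without adjustment, at a p under 0.05, 4 of them lay higher and 3 lower, against 14.1% and 12.6% of all genes. The groups did not overlap for 7 of the 12, against 30.7% of all tested genes. The nearness to all genes thus holds for the adjusted calls only. Bcl2l2, a survival gene on chromosome 14, showed a log2 fold change of 0.54 (edgeR adjusted p 0.00333), and one of -0.01 (adjusted p 0.986) with the median of its chromosome removed. Without knockout replicate A, 5 genes of the family were called.

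p21 is known to repress cell cycle genes through the DREAM complex. Of 12 such genes, none fell and 1 rose, against 5.71% and 7.60% of all genes, which is near that background. The median log2 fold change was 0.08. At an unadjusted p under 0.05, that 1 gene alone passed in edgeR, and DESeq2 also called 1 gene of the list. The gene was Mybl2, which averaged 651 ± 51.6 CPM (WT) and 866 ± 150.4 CPM (knockout) (log2 fold change 0.41, edgeR adjusted p 0.0256). Its call was lost without WT replicate A (adjusted p 0.0655), WT replicate B (0.142), knockout replicate B (0.127) or knockout replicate C (0.0811).

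**Figure D5:**
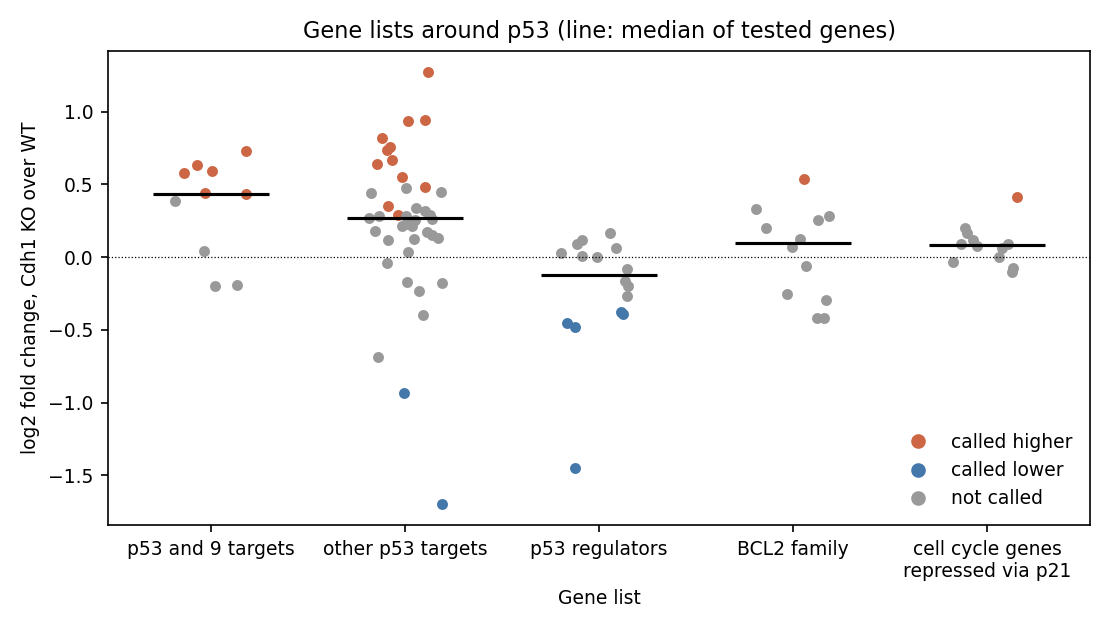
Log2 fold change of the knockout over WT (vertical axis) for each tested gene of 5 lists, with a line at the list's median; orange and blue mark genes called higher and lower. The medians are 0.44 for p53 and its 9 targets together, 0.27 for other targets, -0.12 for regulators, 0.10 for the BCL2 family and 0.08 for cell cycle genes.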

How the data were processed

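The authors deposited raw counts per gene, not normalized, with exon positions and the summed exon length per gene. The submitters' processing notes name cutadapt 2.10, STAR 2.7.5b, featureCounts 2.0.1 and build GRCm38. Libraries came from a directional kit, per the labels' protocols. The strand setting, and whether both mates of a pair were counted, are not given in the sources used here. Exon length served only for levels per kilobase.

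Symbols came from GENCODE M21 identifiers. Counts were fitted in R 4.3.3 with edgeR 4.0.16 (filterByExpr by group with a smallest count of 10 and total of 15, TMM, glmQLFit and glmQLFTest) over all 6 libraries with genotype as the only term. Of 32417 genes with a count, 17325 were tested, with Benjamini-Hochberg adjustment. Standard errors were derived from the F statistic. The common biological coefficient of variation was 0.137. Levels are TMM-scaled CPM. The total count per library lay between 18020719 and 23381942. Principal components used log2 CPM with a prior count.

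The members and the gene lists were chosen with earlier results of these data known. The rule named all 10 members, Mdm4, Cdkn2a, Trp63 and Trp73, and up to 6 called genes per further list, by size of change, with a mean of at least 50 counts. Among the other targets, 1 gene named by this rule is not reported here, but counts over that list include it. Marker lists covered pluripotent, fibroblast, endoderm, neural and mesoderm genes, of which the last had summed levels of 13.6 CPM to 19.6 CPM over the 6 libraries. Alternatives were other scalings and filters, DESeq2 1.42.0, limma-voom (limma 3.58.1), a replicate block, counts divided by 2, removal of the library medians of chromosomes 1 and 14, and leaving out each library.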

Additional observations from a re-analysis of the deposited data

How the results depend on the processing

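Across the 16 alternatives Mdm2, Ccng1, Cdkn1a and Zmat3 were called higher in each, and the number of called members lay between 5 and 7. Trp53inp1 became a called gene with no filter (adjusted p 0.000484), DESeq2 (0.0295), the replicate block (0.0472) and without knockout replicate B. Over the fits that each left out 1 library, the log2 fold change of Bax ran from -0.053 without WT replicate B to 0.17 without WT replicate C. Single-library omission moved the called targets of the broader list to between 8 and 19, regulators to between 3 and 6, BCL2 family genes to between 1 and 5, cell cycle genes to 0 or 1, and all genes to between 1374 and 2784. With chromosome medians removed, 3 regulators and 0 BCL2 family genes were called, and 2 BCL2 family genes with no filter. Whether the replicate letters pair the samples is not stated in the labels. The deviations of same-letter libraries correlated at 0.14, -0.03 and 0.23 across genes for A, B and C. Those of libraries with different letters correlated at -0.25 to 0.12. Deviations were taken from the mean of each genotype, so these correlations depend on each other. They cannot decide whether replicates of the same letter share an effect. With the replicate block 7 members, 20 targets of the broader list and 2686 of all genes were called, against 6, 14 and 2307 without it.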

Other observations

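Among CDK inhibitors other than Cdkn1a, 2 of 6 were called, in opposite directions, against 7.60% called higher and 5.71% called lower among all genes. Cdkn1c, which encodes p57, stood at 13.6, 13.2 and 14.6 CPM in WT and at 19.8, 26.4 and 30.7 CPM in knockout cells (log2 fold change 0.90, SE 0.16, edgeR adjusted p 0.00139). Every knockout library was higher than every WT library, and the call held in all 16 other settings. Genes on the opposite strand cover 30.3% of its exon bases. Cdkn2a, described above, was the one that fell. Cdkn1b, which encodes p27, averaged 84.4 ± 10.1 CPM and 91.0 ± 7.14 CPM (SD, n = 3) and was not called (log2 fold change 0.11, edgeR adjusted p 0.554). It was named after its values were seen.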
